A study of Homo sapiens with 60 samples.

Results

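The HOX cluster genes encode homeodomain transcription factors that lie in 4 clusters on different chromosomes, and they were taken here as every gene whose symbol is HOXA, HOXB, HOXC or HOXD followed by a number. That rule found 39 of the 37334 genes measured, and all 39 are described. A test was run on the 10 members with at least 1 CPM (reads per 1000000 reads assigned to genes) in at least 3 libraries. RNA had been sequenced from SH-SY5Y, a human neuroblastoma line, at 5 times of neuronal differentiation, every 3 days between day 6 and day 18. Pb had been given at 0.16, 1.26 or 10 µM from day 5 onward, or not at all (0 µM), and each of the 20 groups of day and dose held 3 dishes, which gave 60 libraries. All groups shared the wild-type line, passage 39 and the same published differentiation protocol. That protocol is known for stepwise serum withdrawal and retinoic acid, and the labels do not say on which day each step was made. The groups are dishes of 1 tumour-derived line at 1 passage, and a p-value here reflects only how much such dishes vary.

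In the embryo, HOX genes mark position along the head-to-tail axis. Genes at the 3′ end of a cluster (low numbers) act early and towards the head, and genes at the 5′ end (high numbers) act later and towards the tail. Retinoic acid is a classic inducer of the 3′ genes, Polycomb complexes keep unused stretches of a cluster silent, and MLL complexes keep used stretches active. In the spinal cord, combinations of HOX proteins, which bind DNA with the TALE partners PBX and MEIS, set which motor neurons form at each level. In neuroblastoma lines, HOXC6, HOXD1 and HOXD8 were described as genes that rise on chemically induced differentiation, and HOXC9 as a gene that favours differentiation under retinoic acid.

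Library depth ran from 16594259 to 50539599 reads assigned to genes, so that 3 reads, taken as the floor of detection, corresponded to 0.0594 to 0.181 CPM, for counting error only. The names of all 12 libraries of day 18 carry another prefix than those of the 48 of days 6 to 15, and whatever the prefix stands for cannot be told apart from day 18. Pb was compared with 0 µM within each day, hence within 1 prefix. In 2 libraries, replicate 1 of day 18 at 0 µM and replicate 3 of day 6 at 10 µM, longer transcripts read lower than in the other libraries of their day (slopes of -0.502 and -0.47, next lowest -0.184, in log2(CPM + 1) per log10 of exon length). The 12 noradrenergic neuroblastoma markers, among them GATA2 and DBH, were all among the genes tested, and their summed level was 9012 to 10190 CPM on day 18 and 3598 to 15519 CPM on days 6 to 15. The 8 blood cell markers summed to at most 0.78 CPM in any library. The levels come from whole dishes, so fewer cells that use a gene and less RNA per cell cannot be told apart.

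Of the members, 5 of 9 HOXC genes and 5 of 9 HOXD genes passed the 1 CPM filter, and 0 of 11 HOXA and 0 of 10 HOXB genes did. The HOXC members that passed run from HOXC9 (chr12:54000161-54003337) to HOXC4 (chr12:54016888-54056030), and the HOXD members from HOXD9 (chr2:176122719-176124937) to HOXD1 (chr2:176188668-176190907), in RefSeq's annotation of GRCh38.p14. Each of the 10 had at least 1 CPM in all 60 libraries. HOXC8 had the lowest single value among the 10, 1.06 CPM, with a median of 3.14 CPM over the 60 libraries. Outside the filter, HOXD10 reached 1 CPM in 1 library, with a highest value of 1.07 CPM. HOXD members that passed made up 77% of all HOX reads after scaling to CPM, HOXC members that passed 22.6%, and the other 29 members together 0.381%.

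Promoter sequences were at hand for 20 of the 39 members, and 4 are printed because they stand at the points where the results turn. They are RefSeq's windows from 250 bases before to 50 bases after the listed start, in GRCh38.p14, all on the plus strand and read 5′ to 3′. HOXC4 and HOXC5 have 1 and the same window, since their listed starts coincide, at chr12:54016638-54016937. HOXC6 has the same listed start but no entry among the 20 windows, so this window is not particular to HOXC4 and HOXC5. HOXD1 (chr2:176188418-176188717) is the 3′ end of its cluster, and HOXD8 (chr2:176129455-176129754) and HOXD10 (chr2:176116528-176116827) lie on either side of HOXD9, beyond which the signal stops. Capitals mark matches of CCAAT and of the GC box GGGCGG on either strand.
HOXC4 and HOXC5: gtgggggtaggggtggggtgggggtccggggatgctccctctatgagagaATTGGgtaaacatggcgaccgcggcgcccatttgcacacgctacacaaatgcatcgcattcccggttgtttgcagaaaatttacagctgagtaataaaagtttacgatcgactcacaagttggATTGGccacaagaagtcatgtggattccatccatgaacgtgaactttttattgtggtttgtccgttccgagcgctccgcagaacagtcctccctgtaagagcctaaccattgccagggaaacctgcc
HOXD1: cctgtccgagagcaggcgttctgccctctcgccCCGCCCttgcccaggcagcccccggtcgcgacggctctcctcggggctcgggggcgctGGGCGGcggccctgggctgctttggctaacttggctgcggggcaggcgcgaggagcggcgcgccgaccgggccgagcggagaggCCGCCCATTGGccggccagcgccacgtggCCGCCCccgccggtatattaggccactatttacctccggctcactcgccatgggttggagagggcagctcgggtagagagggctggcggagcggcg
HOXD8: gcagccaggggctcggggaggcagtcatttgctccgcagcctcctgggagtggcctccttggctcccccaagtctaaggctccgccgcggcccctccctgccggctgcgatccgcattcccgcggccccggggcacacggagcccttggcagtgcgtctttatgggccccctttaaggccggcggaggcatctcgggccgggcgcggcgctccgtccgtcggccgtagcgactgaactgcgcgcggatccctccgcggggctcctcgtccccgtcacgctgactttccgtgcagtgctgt
HOXD10: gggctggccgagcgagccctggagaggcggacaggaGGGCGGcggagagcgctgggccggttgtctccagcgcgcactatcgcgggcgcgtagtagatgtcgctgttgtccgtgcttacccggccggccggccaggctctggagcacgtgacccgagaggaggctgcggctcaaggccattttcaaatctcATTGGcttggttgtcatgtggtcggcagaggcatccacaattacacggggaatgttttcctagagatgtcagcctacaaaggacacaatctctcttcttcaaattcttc

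The 4 windows differ in their letters. HOXD1 holds 4 GC boxes (GGGCGG), 1 of which directly adjoins its CCAAT box, whereas HOXC4 and HOXC5 hold 2 CCAAT boxes and no GC box. HOXD8 holds neither, and HOXD10 holds 1 of each. Both strands were searched, and the window common to HOXC4 and HOXC5 enters the counts and the median below 2 times, for 1 gene each. CCAAT was found in 17 of the 20 HOX windows and in 34.6% of all 35116 windows of that length, GGGCGG in 10 of 20 and in 45%, TATAAA in 4 of 20 and in 11.5%, and the homeodomain core TAATTA in 2 of 20 and in 4.84%. The nuclear receptor half-site AGGTCA was in 0 of 20 HOX windows and in 13.8% of all windows. The windows of the 6 members that passed the filter held a median of 20 CpG pairs, those of 14 that did not 22.5, and all windows 14.

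Levels of different genes are compared here as CPM per kb of exon. Without Pb on day 6, HOXD9 stood highest with 76.1, 80.8 and 82.5 CPM per kb in the 3 dishes, and HOXD8 followed with 41.5, 42.4 and 40.1 CPM per kb. HOXD3 averaged 11.8 ± 0.571, HOXC4 9.54 ± 1.59, HOXC6 8.57 ± 1.15, HOXD4 7.57 ± 0.923 and HOXC9 6.7 ± 0.639 CPM per kb (SD, n = 3 each). Within these 5, each neighbouring pair in that order overlapped. HOXC5 (3.51 ± 0.568), HOXD1 (2.34 ± 0.349) and HOXC8 (1.13 ± 0.0897 CPM per kb, SD, n = 3 each) came last, each below all dishes of the gene above it. HOXC6 had risen to the third place by day 18, and HOXD3 stood at the sixth.

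The step at the 5′ edge was steep in every library. HOXD10, the next gene beyond HOXD9, had 0.201 CPM per kb on day 6 without Pb, against 79.8 CPM per kb for HOXD9. Within a library, HOXD9 per kb was 77.7 to 1458 times HOXD10 (median 358, 60 libraries). In the HOXC cluster the highest value of HOXC10 in any library was 0.682 CPM, while HOXC9 never fell below 6.19 CPM. Members of groups 10 to 13 are known for the lumbar cord, the hindlimb and the genital region.

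**Figure D1:**
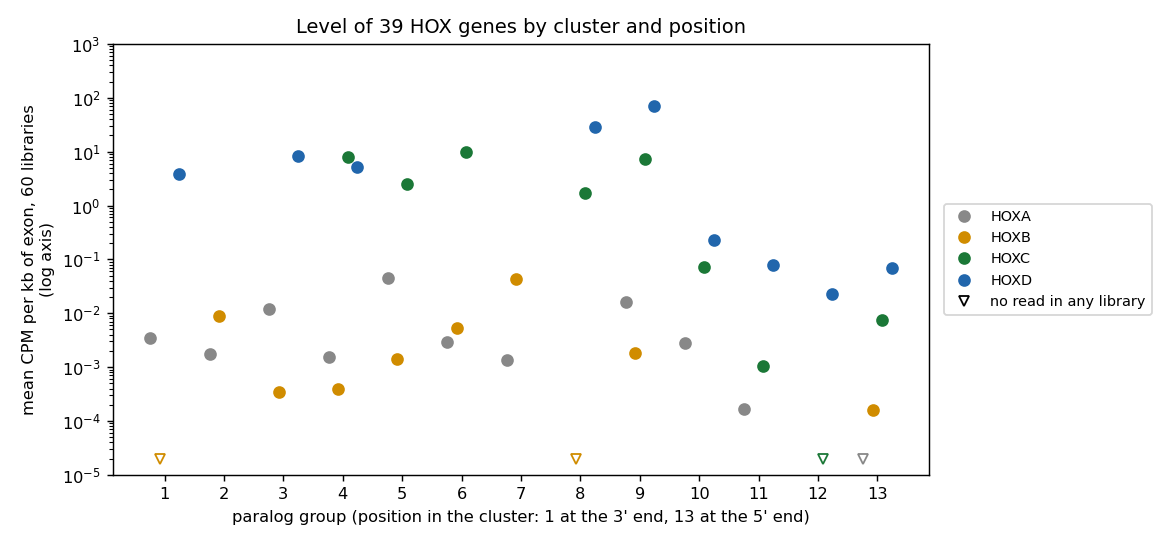
Mean level of each HOX gene over all 60 libraries in CPM per kb of exon (log axis) against its number within the cluster, with 1 point per gene coloured by cluster and triangles for the 4 genes without a read. The 10 points above 1 CPM per kb are all HOXC or HOXD genes of groups 1 to 9, and every HOXA and HOXB gene lies below 0.1.

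Some of these genes share exon bases. In GENCODE v29, HOXC4, HOXC5 and HOXC6 have exons in common (305 to 484 bases), and HOXD3 and HOXD4 share 88.5% and 80.5% of their exon bases with a read-through gene that has no row of its own. HOXD1 shares 50.1% of its exon bases with a transcript of the opposite strand. How the counting assigned reads in such stretches, and whether it used the strand, is not given in the sources used here, so these 6 levels are less certain than those of HOXC8, HOXC9, HOXD8 and HOXD9. MIR10B, the hairpin of the cluster's microRNA upstream of HOXD4, had at most 0.613 CPM.

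The time course without Pb addresses the change of HOX levels over differentiation. By day 12, HOXD1, HOXC8 and HOXC6 had risen and HOXC4, HOXC5, HOXD3 and HOXD4 had fallen relative to day 6, and from day 15 on HOXD8 had fallen too. Not all of these passed on every later day. HOXD4 stayed lower on day 15 (-0.31) without passing and passed again on day 18, whereas HOXC4 did not pass on day 18. By day 18, 8 of 10 members differed from day 6, with 3 higher and 5 lower, and HOXD9 was among the lower ones. For day 12, 21.6% of all genes were higher and 34.6% lower, and for day 18 32.1% were higher and 34.7% lower. On day 9 no member had passed (0 of 10, 1 at an unadjusted p under 0.05, and 0 by edgeR). Tests are limma on log2(CPM + 1) with Benjamini-Hochberg adjustment over the 15263 genes kept and a threshold of 0.05, and changes are on that log2 scale with standard errors.

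These counts stand beside a large change of the whole transcriptome. On day 9, 5.14% of all genes tested had passed, on day 12 56.2% (7 of 10 HOX members), on day 15 58.3% (7 of 10) and on day 18 66.8% (8 of 10). The HOX shares are thus near the background. The median change over the 10 members was 0.01 on day 9, -0.20 on day 12, -0.23 on day 15 and -0.30 on day 18, and over all genes it was -0.00, -0.11, -0.05 and -0.03. With median-ratio rescaling the median of all genes on day 12 was -0.01 in place of -0.11.

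HOXD1, the 3′-most HOXD gene, known in mice from sensory neurons, showed the largest rise. It had 11, 10.2 and 10 CPM on day 12, against 3.87, 5.23 and 4.74 CPM on day 6, with no overlap (change 1.03 ± 0.20, adjusted p = 2.78e-05 by limma). Mean levels over the 5 days were 4.62, 6.1, 10.4, 7.95 and 8.41 CPM, so the highest mean was on day 12. HAGLR, a long non-coding RNA transcribed from the opposite strand of the HOXD cluster, had 58.6 ± 1.85 CPM on day 12, against 35.2 ± 2.34 CPM on day 6 (SD, n = 3 each), and limma gave a change of 0.72 ± 0.11 with an adjusted p of 2.68e-07.

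HOXC8 and HOXC6, which mark forelimb-level motor neurons of the spinal cord in mice, rose with HOXD1 between days 9 and 12. HOXC8 had 3.25, 4.59 and 5.36 CPM on day 12, against 2.32, 2 and 2.08 CPM on day 6, and all day 12 dishes lay above all day 6 dishes (change 0.77 ± 0.23, adjusted p = 0.00356 by limma). HOXC6 had 35.9 ± 1.99 CPM on day 12 and 27.9 ± 3.75 CPM on day 6 (SD, n = 3 each), a change of 0.36 ± 0.08 with an adjusted p of 0.000274 by limma. Both stayed above day 6 on days 15 and 18. The call for HOXC8 on day 18 (change 0.63 ± 0.23, adjusted p = 0.0124 by limma) did not pass without replicate 1 of day 18 (0.54, adjusted p = 0.0589).

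HOXC4, a neck-level gene, moved in both directions. It had 13.8, 12.6 and 11.2 CPM on day 12, against 19, 20.2 and 25.7 CPM on day 6 (change -0.73 ± 0.13, adjusted p = 3.27e-06 by limma), with no overlap. The rise on day 15 relative to day 12 (0.32 ± 0.13, adjusted p = 0.0416 by limma) passed in only 3 of 8 alternatives. It was also lost when any of 3 of the 6 libraries compared was left out. By day 18 the mean of HOXC4 was 21.6 ± 3.35 CPM, against 21.6 ± 3.6 CPM on day 6 (SD, n = 3 each; change -0.00 ± 0.13). The rise on day 18 relative to day 15 (0.41 ± 0.13, adjusted p = 0.0111 by limma) did not pass without replicate 1 of day 18 (0.29, adjusted p = 0.112), without replicate 2 of day 15 (0.33, adjusted p = 0.0813), without both libraries low in long transcripts (adjusted p = 0.0795) or with a fit of only these groups (adjusted p = 0.097, all limma).

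HOXC5, whose mouse counterpart acts in phrenic motor neurons, fell and stayed low. It had 3.55, 3.54 and 4.4 CPM on day 18, against 8.79, 6.9 and 6.57 CPM on day 6, without overlap (change -0.80 ± 0.16, adjusted p = 2.16e-05 by limma). Its fall on day 12 (-0.39 ± 0.16, adjusted p = 0.0306) was lost with rescaling, without the filter, by edgeR and by DESeq2 (adjusted p up to 0.113), and without replicate 1 of day 6 (adjusted p = 0.179) or replicate 2 or 3 of day 12. Within a library HOXC6 was 2.87 ± 0.179 times HOXC4 in CPM on day 12 and 1.32 ± 0.352 times on day 6 (SD, n = 3 each), although the 2 genes share a listed start.

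The remaining HOXD genes fell. HOXD8 had 61.9, 44.2 and 45.6 CPM on day 18, against 109.1, 111.5 and 105.5 CPM on day 6, so the highest day 18 dish lay well below the lowest day 6 dish (change -1.11 ± 0.13, adjusted p = 8.31e-10 by limma). Most of its fall lay between days 12 and 15, with 58.5 ± 7.28 CPM on day 15, against 91.1 ± 16.4 CPM on day 12 (SD, n = 3 each; change -0.62 ± 0.13, adjusted p = 0.000215 by limma). HOXD4, whose mouse counterpart has a retinoic acid-responsive enhancer, had 5.82, 4.73 and 4.04 CPM on day 18, against 12.6, 10.6 and 10.1 CPM on day 6, again without overlap (change -1.05 ± 0.18, adjusted p = 1.65e-06 by limma). Relative to day 6 it changed by -0.56 ± 0.18 on day 12 (adjusted p = 0.00704 by limma). On day 15 it did not pass (-0.31 ± 0.18, adjusted p = 0.134 by limma). Most of its fall by day 18 was a step between days 15 and 18 (-0.74 ± 0.18, adjusted p = 0.00139 by limma), and that step coincides with the change of prefix.

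HOXD3, which acts in the neck vertebrae of mice, had mean levels of 29.4, 23.2, 19.9, 18.4 and 16.4 CPM over the 5 days, each mean below the one before. Its change on day 18 relative to day 6 was -0.81 ± 0.12 (adjusted p = 5.98e-08 by limma). HOXD9, a gene of the trunk and limbs, averaged 149.3, 165, 136.3, 135 and 97.8 CPM over the 5 days. It passed on day 18 alone (-0.61 ± 0.13, adjusted p = 4.29e-05 by limma), where the day and the prefix coincide. As HOXD8 fell before HOXD9, the ratio of HOXD8 to HOXD9 in CPM was 0.433 ± 0.0214 on day 15 and 0.729 ± 0.0419 on day 6 (SD, n = 3 each).

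HOXC9, which marks thoracic motor neurons in mice, passed on no day. It averaged 10.4, 12.5, 10.4, 11.4 and 11.9 CPM over the 5 days, and its difference between day 18 and day 6 was 0.17 with a 95% interval from -0.15 to 0.50. Relative to the day before in the series, 5 members passed on day 12 (54.4% of all genes), 2 on day 15 (37%) and 3 on day 18 (33.3%). Without Pb, the 5 HOXD members summed to 197, 168.8 and 168.2 CPM on day 18, against 299, 307.3 and 302.8 CPM on day 6, with no overlap. The 5 HOXC members summed to 85.1, 76.5 and 73.9 CPM on day 18, against 72.5, 66.4 and 69.5 CPM on day 6, and the highest day 6 sum lay below the lowest day 18 sum.

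**Figure D2:**
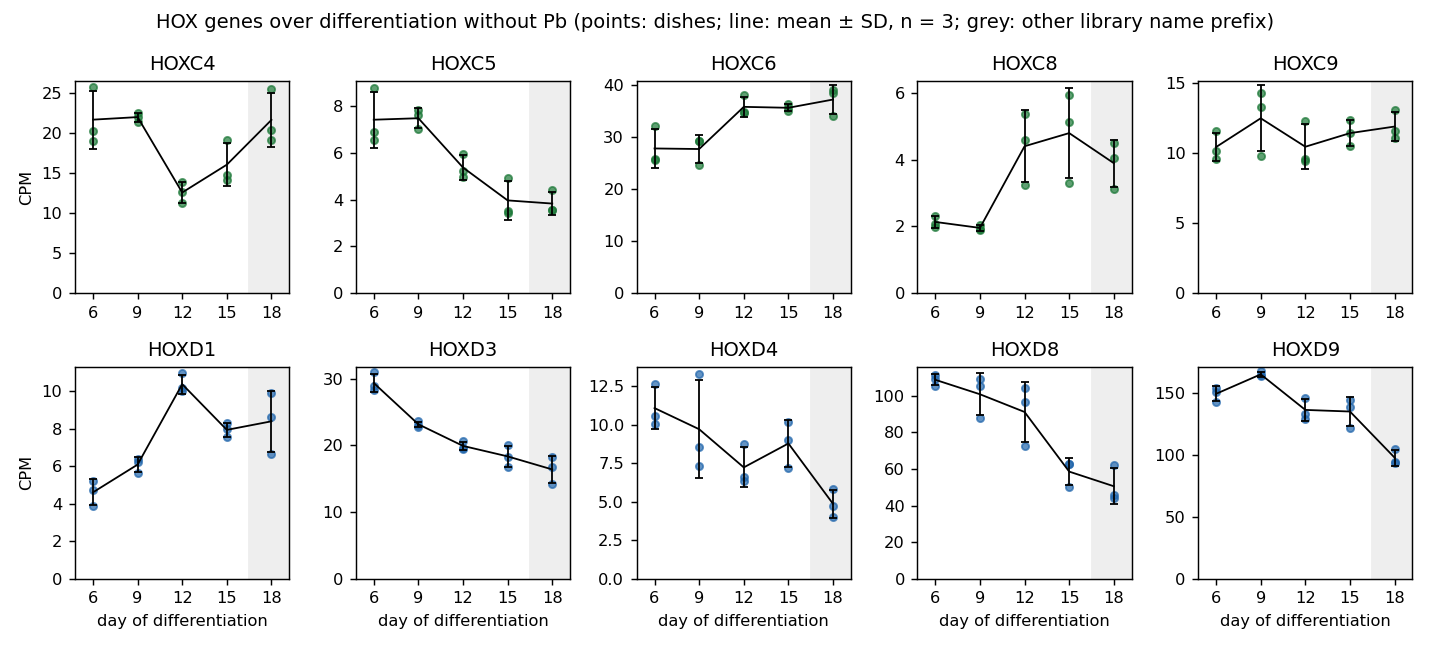
CPM of the 10 tested HOX genes without Pb against the day of differentiation, with 1 point per dish and lines for the mean ± SD (n = 3); grey marks day 18, whose library names have the other prefix. HOXD1, HOXC8 and HOXC6 lie higher from day 12 on, HOXC4 is lowest on day 12, and HOXD3, HOXD4, HOXD8, HOXD9 and HOXC5 are lowest on day 18.

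With 10 µM Pb the 2 HOX genes with the highest levels per kb, HOXD8 and HOXD9, were lower as a mean over the 5 days, and no member passed at the lower doses. Averaged over the 5 days, with each day set against its own 0 µM dishes, HOXD9 changed by -0.22 ± 0.06 (adjusted p = 0.00472 by limma) and HOXD8 by -0.22 ± 0.06 (adjusted p = 0.00591). In all, 2 of 10 members passed, both lower, where 15.1% of all genes passed and 8.13% passed downwards. At 0.16 µM, 0 of 10 members passed as the mean over days (0.124% of all genes, 0 at an unadjusted p under 0.05, 0 by edgeR). At 1.26 µM it was again 0 of 10 (3.84% of all genes, 1 at an unadjusted p under 0.05, 0 by edgeR). The slope over the 4 doses, taken as equal steps, passed for the same 2 genes, at -0.07 ± 0.02 per step for each (15.7% of all genes passed, HOXD8 adjusted p = 0.00733 and HOXD9 adjusted p = 0.00701 by limma). Without day 18 neither slope passed (HOXD8 adjusted p = 0.14, HOXD9 adjusted p = 0.0536 by limma).

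HOXD9 lay lower with 10 µM on all 5 days, by -0.01, -0.06, -0.16, -0.29 and -0.56 from day 6 to day 18. Its day 15 dishes had 111.3, 127 and 94.9 CPM with 10 µM and 122, 144.5 and 138.4 CPM without Pb, and 1 treated dish overlapped. On day 18 it had 61.9, 68.9 and 67.3 CPM with 10 µM and 105.1, 94.5 and 93.7 CPM without Pb, with no overlap (change -0.56 ± 0.13, adjusted p = 0.000643 by limma). Without day 18, the mean over days was -0.13 with an adjusted p of 0.0377.

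HOXD8 lay lower with 10 µM on 4 of 5 days, with day 6 the exception. It had 67.6, 80.1 and 60.3 CPM with 10 µM on day 12, against 72.7, 104.3 and 96.3 CPM without Pb, and 1 treated dish overlapped (change -0.38 ± 0.13, adjusted p = 0.0842 by limma). On day 18 the values were 36.8, 36.9 and 35.4 CPM with 10 µM, against 61.9, 44.2 and 45.6 CPM without Pb (change -0.45 ± 0.13, adjusted p = 0.00955 by limma), so the groups did not overlap. The call on day 18 was lost without replicate 1 at 0 µM, 1 of the 2 libraries low in long transcripts (-0.30, adjusted p = 0.149), and the mean over days did not pass without day 18 (adjusted p = 0.116).

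Day 18 held every call within a day. With 10 µM, 4 of 10 members passed there (28.9% of all genes, 16.9% downwards), and all 10 differences were below 0. On days 6, 9, 12 and 15, 0 of 10 passed (0.655%, 1.41%, 5.37% and 5.68% of all genes), with 1, 0, 2 and 1 members at an unadjusted p under 0.05 and 0 by edgeR on each of these days. The median difference of the members on day 18 was -0.41, and that of all genes -0.05. At the lower doses 0 of 10 members passed on each of the 5 days by limma and by edgeR. From day 6 to day 18 the share of all genes that passed was 0%, 0.0131%, 0.0197%, 0.0131% and 6.34% with 0.16 µM and 0%, 0.4%, 0.0459%, 1.26% and 12.4% with 1.26 µM. Members at an unadjusted p under 0.05 numbered 1, 0, 1, 0 and 1 with 0.16 µM and 0, 0, 1, 0 and 3 with 1.26 µM over the same days. On day 18, 9 of 10 differences with 0.16 µM and 10 of 10 with 1.26 µM lay below 0, though none passed. The median difference there was -0.19 for the members and 0.002 for all genes with 0.16 µM. With 1.26 µM it was -0.25 for the members and -0.01 for all genes. The share of all genes below 0 is not given here for any dose. Over all genes and days together, 1.28% of gene-by-day tests passed with 0.16 µM, 2.82% with 1.26 µM and 8.41% with 10 µM. The comparisons of the 3 doses on a day share the same 3 libraries without Pb. On day 18 these include replicate 1, a library low in long transcripts. Its HOXD members that passed the filter summed to 197 CPM, against 168.8 and 168.2 CPM in the other dishes without Pb. Not every member was highest there, and HOXD3 was lowest there. With 1.26 µM on day 18, the same HOXD sum was 107.7 CPM in replicate 1, against 165.3 and 181.1 CPM. The part of these libraries in the common direction was not tested.

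HOXC4 and HOXD3 were the other 2 members that passed on day 18. HOXC4 had 14.8, 17 and 12.4 CPM with 10 µM, against 25.4, 19.1 and 20.3 CPM without Pb, with no overlap (change -0.52 ± 0.13, adjusted p = 0.00153 by limma, and -0.40 with an adjusted p of 0.0339 without replicate 1 at 0 µM). HOXD3 had 12, 12.3 and 9.83 CPM with 10 µM, against 14.2, 16.8 and 18.2 CPM without Pb, also without overlap (change -0.49 ± 0.12, adjusted p = 0.00125 by limma). Neither gene passed as the mean over days (-0.04 for HOXC4, -0.11 for HOXD3), since HOXC4 lay higher with 10 µM on 3 of the other days and HOXD3 on days 9, 12 and 15. When only the groups compared were fitted, HOXD9 was the 1 member that passed on day 18 (HOXC4 adjusted p = 0.057, HOXD3 0.0553 and HOXD8 0.0549).

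The other members named by their p as the mean over days did not pass on any day. On day 18 HOXD4 had 3.68, 3.81 and 2.8 CPM with 10 µM, against 5.82, 4.73 and 4.04 CPM without Pb, and the groups did not overlap (change -0.40 ± 0.18, adjusted p = 0.0865 by limma). HOXC5 had 3.39, 3.06 and 3.42 CPM with 10 µM, against 3.55, 3.54 and 4.4 CPM without Pb. On day 12 it had 4.55, 2.86 and 3.84 CPM with 10 µM, against 5.95, 5.21 and 4.96 CPM without Pb, again with no overlap (change -0.44 ± 0.16, adjusted p = 0.0987 by limma). On day 18 HOXC8 had 2.46, 3.21 and 3.8 CPM with 10 µM, against 4.51, 3.13 and 4.04 CPM without Pb, and HOXC9 had 10.4, 9.63 and 10.4 CPM with 10 µM, against 13.1, 11.5 and 11 CPM without Pb. On that day HOXC8 overlapped between the groups, HOXC5 and HOXC9 did not, and limma passed none of them.

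HOXC6 and HOXD1, which had risen on differentiation, showed no call with Pb. The mean difference over days at 10 µM was 0.01 for HOXC6, with a 95% interval from -0.07 to 0.08, and -0.01 for HOXD1, with an interval from -0.19 to 0.17. The differences of HOXD1 from day 6 to day 18 were 0.23, 0.05, 0.07, 0.04 and -0.43. On day 18 it had 5.94, 8.59 and 3.99 CPM with 10 µM, against 9.92, 8.62 and 6.69 CPM without Pb, and the groups overlapped (change -0.43 ± 0.20, adjusted p = 0.108 by limma).

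**Figure D3:**
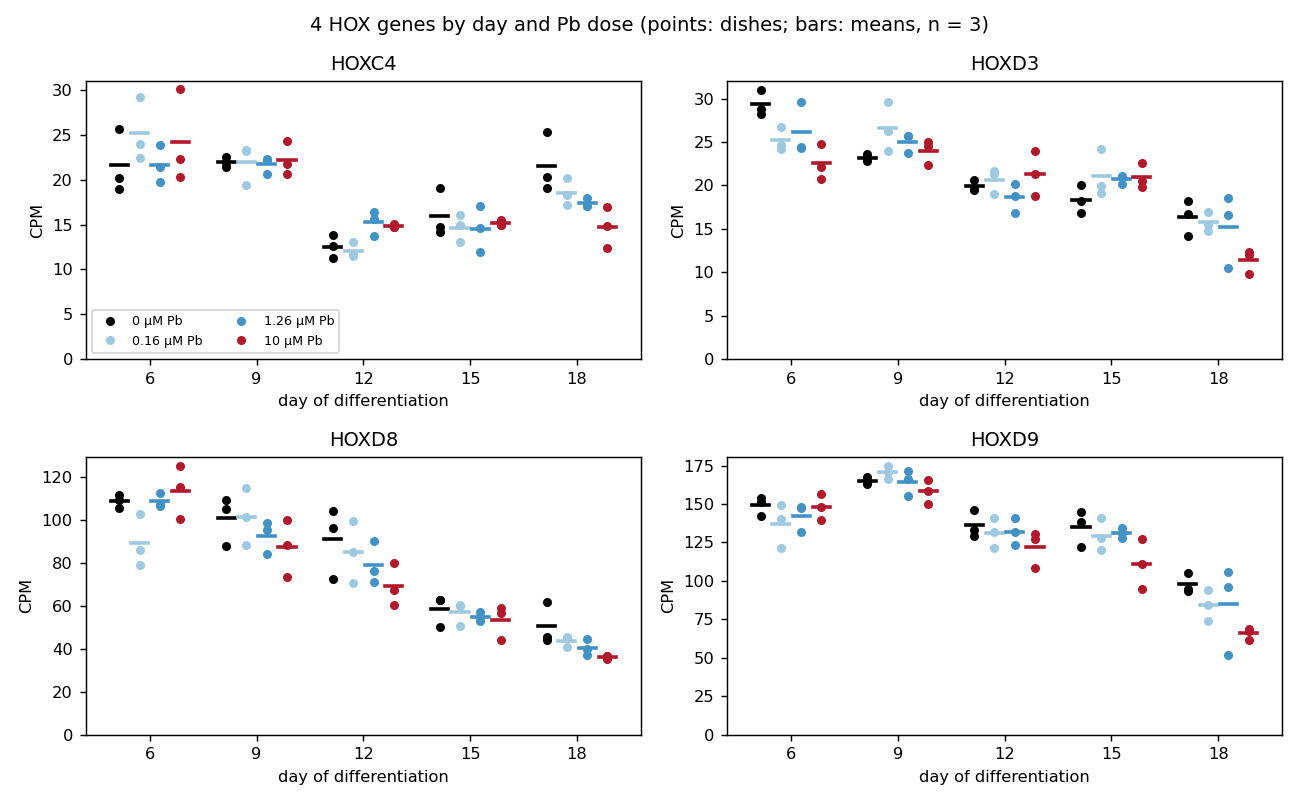
CPM of HOXC4, HOXD3, HOXD8 and HOXD9 by day, with the 4 Pb doses from 0 to 10 µM side by side, 1 point per dish and bars for the means (n = 3). On day 18 the 3 dishes with 10 µM lie below the 3 dishes without Pb in each of the 4 genes, and replicate 1 with 1.26 µM lies far below its group in HOXD9 (52 CPM, against 96.2 and 106 CPM).

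**Figure D4:**
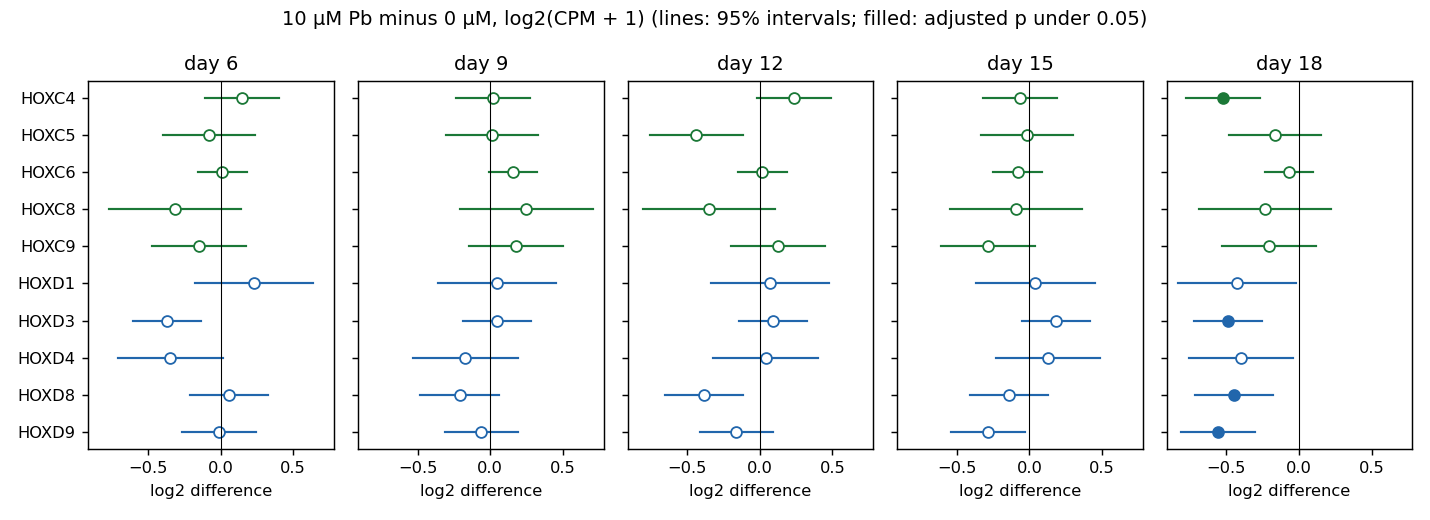
Difference of 10 µM Pb minus 0 µM on the log2(CPM + 1) scale for each tested HOX gene on each day, with 95% intervals of the model; filled points passed the threshold. The 4 filled points are HOXC4, HOXD3, HOXD8 and HOXD9 on day 18, between -0.56 and -0.45.

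Whether the Pb differences vary with the day was tested with a moderated F test over 12 contrasts. By limma 0 of 10 members passed, where 11.8% of all genes did, with 2 members at an unadjusted p under 0.05 (HOXD3 adjusted p = 0.0547, HOXC4 adjusted p = 0.0628). edgeR gave 0 and DESeq2 1. Without the 2 libraries low in long transcripts limma also gave 1.

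Genes around the members were counted in lists. One list held the TALE partners together with PBXIP1, which is not a TALE protein itself. Of its 9 genes tested, 3 were lower with 10 µM as the mean over days and none higher (15.1% of all genes passed and 8.13% passed downwards). Among them were MEIS1 (-0.29 ± 0.03, adjusted p = 7.63e-10) and PBX2 (-0.24 ± 0.08, adjusted p = 0.0266, both limma). MEIS1 had 61.2 ± 5.39 CPM with 10 µM and 91.8 ± 10.1 CPM without Pb on day 18 (SD, n = 3 each). Without Pb, 2 genes of this list were higher and 5 lower on day 18 than on day 6, among them MEIS3 with 47.5 ± 9.52 CPM on day 18 and 172.8 ± 28.6 CPM on day 6. The median of the list at 10 µM was -0.07, against 0.00 for all genes.

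Of 17 genes of retinoic acid supply, breakdown and binding, 2 rose and 2 fell with 10 µM as the mean over days, where 15.1% of all genes passed. CYP26A1, which breaks down retinoic acid, was higher by 0.23 ± 0.02 (adjusted p = 3.43e-10 by limma), with 1275 ± 26.5 CPM with 10 µM and 967.7 ± 18.8 CPM without Pb on day 18 (SD, n = 3 each). ALDH1A3, which makes retinoic acid, was higher by 0.36 ± 0.06 (adjusted p = 2.93e-05), and TGM2, a retinoic acid-induced transglutaminase, was lower (change -0.26 ± 0.03, adjusted p = 2.92e-10). Over differentiation, 5 of the 17 were higher and 6 lower on day 18 than on day 6. CRABP1, which binds retinoic acid in the cytosol, had 641.2 ± 68.5 CPM on day 18 and 20.3 ± 1.98 CPM on day 6 (SD, n = 3 each).

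Of 24 Polycomb genes, 2 were lower and none higher with 10 µM as the mean over days, where 8.13% of all genes passed downwards. EZH2, the methyltransferase of the complex, changed by -0.23 ± 0.04 (adjusted p = 1.16e-05) and PHF19 by -0.21 ± 0.04 (adjusted p = 0.000208, both limma). On day 18, 3 of the 24 were higher and 16 lower than on day 6. Of 15 genes of MLL complexes and H3K27 demethylases, 1 was higher (KMT2C) and 1 lower (SETD1B) with 10 µM (15.1% of all genes passed), and 2 were higher and 12 lower on day 18 than on day 6.

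Among 12 tested genes that flank the clusters, 1 was higher and 4 lower with 10 µM as the mean over days (15.1% of all genes passed), and 6 were higher and 3 lower on day 18 than on day 6. CALCOCO1, beside the HOXC cluster, had 54.3 ± 3.86 CPM with 10 µM and 79.6 ± 4.9 CPM without Pb on day 18 (SD, n = 3 each; change -0.54 ± 0.07, adjusted p = 1.37e-07 by limma). Only HAGLR and HOXC-AS1 of the 13 HOX long non-coding RNAs in the table passed the filter, and neither passed with 10 µM as the mean over days. On day 18 HOXC-AS1 had 0.889, 0.672 and 0.237 CPM with 10 µM, against 1.86, 1.33 and 0.783 CPM without Pb, and passed although the groups overlapped (change -0.53 ± 0.17, adjusted p = 0.0125 by limma, 28.9% of all genes passed). CDX1 was the 1 gene tested of 13 homeobox genes kin to HOX, and of 4 tested tail-bud regulators none passed with 10 µM as the mean over days and 1 was lower with 10 µM on day 18. Without Pb, 1 of these was higher and 2 lower on day 18 than on day 6. In all these lists the share that passed over differentiation is to be read against 66.8% of all genes on day 18.

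Markers of growth and of other cells moved with some of these results. All 20 cell cycle genes were lower with 10 µM as the mean over days, where 8.13% of all genes were, and their summed level on day 18 was 803.9 to 845.5 CPM with 10 µM and 1337 to 1460 CPM without Pb. Their part in the HOXD8 and HOXD9 result was not tested. Of 17 mesenchymal markers tested, 12 were lower and 2 higher with 10 µM (15.1% of all genes passed), among them VIM with 118.5 ± 2.06 CPM with 10 µM and 173.7 ± 3.01 CPM without Pb on day 18 (SD, n = 3 each). Of the 12 noradrenergic markers 4 were lower and none higher, and of 3 glial markers tested 1 was higher. The part of these cell states was not tested either.

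The 29 members under the filter were close to silent, but not equally so on all days. Of these, 4 had no read in any library (HOXA13, HOXB1, HOXB8 and HOXC12), and the highest single values were 0.444 CPM for HOXA members (HOXA5), 0.341 CPM for HOXB members (HOXB7), 0.682 CPM for HOXC members (HOXC10) and 1.07 CPM for HOXD members (HOXD10). Their summed level was 1.16 to 3.37 CPM on day 18 (median 2.49, 12 libraries), against 0.318 to 1.68 CPM on days 6 to 15 (median 0.866, 48 libraries). Over all reads of the day, HOXA members made up 0.544 CPM on day 18 and 0.0895 CPM on days 6 to 15. HOXA9, a gene of blood stem cells and of the trunk, had reads in 12 of 12 libraries on day 18 and in 4 of 48 before.

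On day 18 keratins of basal skin cells were higher too. The marker sums did not overlap between day 18 and the days before, whereas the sums of the 29 HOX members did. The summed level of 14 epithelial and skin markers, of which KRT1 was at 0 in all 60 libraries, was 115.7 to 185.2 CPM on day 18, against 23.6 to 45 CPM on days 6 to 15. KRT5 had 34.4 ± 8.34 CPM on day 18 and 0.481 ± 0.167 CPM on day 6 without Pb (SD, n = 3 each). Their part in the higher level of the silent HOX genes on day 18 was not tested, and the library prefix and the day cannot be told apart. With Pb on day 18, the 29 members summed to 1.7, 1.16 and 2 CPM with 10 µM and 3.28, 3.37 and 2.53 CPM without Pb, while the epithelial markers summed to 123.9 to 142.2 CPM with 10 µM and 122.3 to 185.2 CPM without Pb. The HOX sums did not overlap between the 2 doses, and the epithelial sums did.

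**Figure D5:**
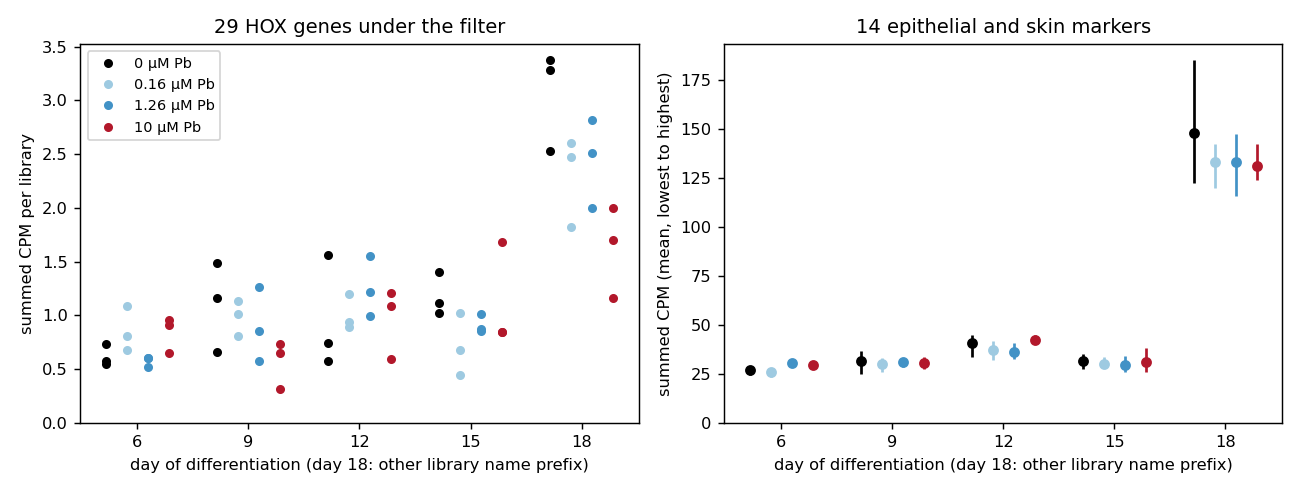
Left, summed CPM of the 29 HOX genes under the filter in each library by day and Pb dose, 1 point per library; right, summed CPM of the 14 epithelial and skin markers, with points for the mean and lines between the lowest and the highest of 3 libraries. Both panels are highest on day 18, where the left panel runs from 1.16 to 3.37 CPM and the right one from 115.7 to 185.2 CPM.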

How the data were processed

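The authors deposited 1 table of CPM values (read counts scaled to 1000000 per library) for 37334 genes and 60 libraries, made with PlexWell, per the labels. FastQC, MultiQC, STAR, featureCounts and the build GRCh38 are listed in the submitters' processing notes; annotation, strand setting and versions are not given in the sources used here. Whole reads were recovered: 100% of values were whole within 0.01 read (largest deviation 0.000168). The filter (1 CPM or more in 3 or more libraries) left 15263 genes. Values were fitted as log2(CPM + 1), without rescaling, by limma 3.58.1 in R 4.3.3, with 20 group means, an intensity trend and 40 residual degrees of freedom. Fold changes of low genes are understated on this scale. All tests are two-sided, adjusted by Benjamini-Hochberg over all genes kept. edgeR 4.0.16 and DESeq2 1.42.0 ran on the recovered reads as alternatives, which called 2169 genes (edgeR, 10 µM as the mean over days, limma 2298). No pair of replicates held identical values. Exon lengths and overlaps are from GENCODE v29. Day 18 was left out in turn, as were single libraries. Members, gene lists, tests and alternatives were chosen with earlier results of these data known. Every kept member is named, with values per dish for up to 3 members a cluster with the largest changes from day 6 and up to 8 with the smallest p at 10 µM; of each list, up to 3 by p at 10 µM and up to 3 by p on day 12 or 18. Values of some list genes are not reported here.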

Additional observations from a re-analysis of the deposited data

How the results depend on the processing

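For the 10 tested members, every call kept its direction under all alternatives, and none reversed. The counts that moved by over 1.5 times are these. Without the filter on low values, 15 of 39 members passed for day 18 relative to day 6 and 10 for day 18 relative to day 15. Within days 1 call passed with 0.16 µM, 2 with 1.26 µM and 8 with 10 µM. The share of all genes that passed without the filter is not given here, so these counts have no background beside them. With a fit of only the groups compared, 1 member passed on day 9 and 1 within days at 10 µM (fewer samples set the spread). Without day 18, 1 member passed at 10 µM as the mean over days, 0 for the slope over doses (HOXD9 adjusted p = 0.0536 by limma), and 2 within days at 10 µM, HOXD3 on day 6 and HOXD9 on day 15. For Pb by day, DESeq2 and leaving out the 2 libraries low in long transcripts each gave 1; the cause was not tested. Leaving out single libraries, counts ran from 6 to 7 for days 12 and 15, from 7 to 8 for day 18, from 4 to 6 for day 12 relative to day 9, from 1 to 3 for day 15 relative to day 12 (1 without replicate 2 or 3 of day 12 or replicate 3 of day 15), from 2 to 3 for day 18 relative to day 15, from 0 to 1 with 1.26 µM and from 3 to 6 with 10 µM within days, and from 0 to 2 for Pb by day, where leaving out any of 12 single libraries gave 1. The single call with 1.26 µM appeared without replicate 3 of day 18 with 1.26 µM, and 2 for Pb by day without its replicate 1. Other leave-one-out counts stayed at 0 (day 9, and the mean over days at 0.16 and 1.26 µM) or 2 (10 µM as the mean over days, slope). HOXC4 on day 15 relative to day 6 did not pass without replicate 3 of day 6 (adjusted p = 0.0751 by limma). Of 40 gene calls, a pseudocount of 0.25 and the replicate block kept all 40, and rescaling, no filter, edgeR and DESeq2 kept 37 each. Leaving out the 2 libraries low in long transcripts kept 38 and lost 2. Of the calls that it covers, a fit of only the groups compared kept 33 and lost 5. Without day 18, 1 was kept and 3 were lost. Leaving out single libraries kept a call 381 times and lost it 15 times. Replicate numbers did not pair the dishes throughout (45 correlations from -0.356 to 0.394, 9 of them over 0.1). The number of comparisons with all 3 replicates over 0.1 was 0. Replicate 2 alone was positive with every dose on days 12 and 15 (0.108 to 0.332), so dishes of that number were alike there. No sample was crossed. Depth limits most members under the filter, with HOXD10, which has reads in all 60 libraries, an exception.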

Other observations

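Without the filter, limma also passed members with low levels, which were singled out after their values were seen. For day 18 relative to day 6 without Pb these were HOXA3, HOXA9, HOXB5, HOXB6, HOXB7, HOXC10 and HOXD11. HOXB5 had reads in just 1 of the 60 libraries, replicate 2 of day 18 at 0 µM, with 5 reads. The share of all genes that passed without the filter is not given here, and day 18 coincides with the other library prefix. HOXB7 had reads in all 3 dishes without Pb on day 18 (0.164, 0.341 and 0.241 CPM) and none in the 3 dishes with 10 µM (adjusted p = 0.000907), where 3 reads correspond to at most 0.181 CPM in any library. HOXA5 had 0.178, 0.444 and 0.182 CPM with 10 µM on day 12, against 0, 0.0617 and 0 CPM without Pb (adjusted p = 0.0324). HOXA9 had 0.109, 0.17 and 0.241 CPM without Pb on day 18, against 0, 0.0302 and 0 CPM on day 6 (adjusted p = 1.55e-06), and with 10 µM on day 18 it had 0.121, 0.187 and 0.237 CPM. HOXC10 had 0.656, 0.443 and 0.482 CPM without Pb on day 18, against 0.0455, 0 and 0 CPM on day 6 (adjusted p = 0.000248). Such tests rest on a few reads a library.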
